A study of Mus musculus with 20 samples.

Results

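Fatty acid oxidation and ketone body genes were followed in the livers of mice given a locked nucleic acid antisense oligonucleotide (LNA) against the small nucleolar RNA SNORA73 or against GFP, the control. The 35 genes were chosen by symbol and not by a rule on their values, though with earlier results of these data known. They are enzymes and carriers of mitochondrial and peroxisomal fatty acid oxidation, genes of ketone body metabolism and targets of the nuclear receptor PPARα. All 35 were found among the 53028 Ensembl genes of the deposited table. RNA was sequenced from the liver lysate of each mouse (total RNA, the transcriptome) and from its polysome fractions (polysome RNA, mRNA engaged by several ribosomes). The 10 animals were male C57BL/6J mice, 5 per LNA group, each giving 1 library of either RNA. Mice 1, 2, 3, 8 and 9 received the GFP LNA and mice 4, 6, 10, 11 and 12 the SNORA73 LNA. The study's design gives 3 injections of 3 mg/kg into the peritoneum on alternate days from an age of 8 weeks, with livers taken 2 days after the last. Its methods give an age of 10 weeks for liver polysomes, from freely fed mice given cycloheximide by tail vein shortly before death. The paper states that the sequenced animals were on chow. No allele was altered, the control animals were injected too, and the oligonucleotide was given to the whole animal. The titles of the libraries spell the target snoRA37 or SnoRA37, whereas the design has SNORA73.

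In the liver, long-chain fatty acids are bound to fatty acid binding protein, joined to coenzyme A, carried into mitochondria as carnitine esters, and shortened in repeated rounds of dehydrogenation, hydration, dehydrogenation and thiolysis. Electrons leave the acyl-CoA dehydrogenases through the electron transfer flavoprotein, and the acetyl-CoA formed feeds the tricarboxylic acid cycle or is made into ketone bodies for export. Very long chains start in peroxisomes. PPARα, which fatty acids activate, drives many of these genes in fasting.

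PPARα with its partner RXR binds a direct repeat of the half-site AGGTCA with 1 base between the copies, and the upstream sequences of 6 members whose values the results turn on are shown with this motif in mind. They come from RefSeq (GRCm38.p6), are the 250 bases before an annotated start, and are written on the gene's strand. For Acot4 the stretch lies inside the gene's annotated span (84037254 to 84044723), so it precedes a later start. Capitals mark AGGTCA on either strand and, in Fabp1, the relaxed repeat AGGNCANAGGNCA.

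Fabp1 (chr6:71199629-71199878, plus strand): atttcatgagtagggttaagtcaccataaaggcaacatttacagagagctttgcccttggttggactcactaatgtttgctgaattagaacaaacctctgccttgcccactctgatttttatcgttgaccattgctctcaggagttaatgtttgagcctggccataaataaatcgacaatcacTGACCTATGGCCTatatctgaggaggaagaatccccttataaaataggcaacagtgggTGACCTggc
Etfb (chr7:43443822-43444071, plus strand): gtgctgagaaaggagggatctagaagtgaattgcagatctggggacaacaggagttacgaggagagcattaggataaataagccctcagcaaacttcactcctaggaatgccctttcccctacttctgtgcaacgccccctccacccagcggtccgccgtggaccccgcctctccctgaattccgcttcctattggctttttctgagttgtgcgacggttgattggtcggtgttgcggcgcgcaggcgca
Pdk4 (chr6:5496279-5496528, minus strand): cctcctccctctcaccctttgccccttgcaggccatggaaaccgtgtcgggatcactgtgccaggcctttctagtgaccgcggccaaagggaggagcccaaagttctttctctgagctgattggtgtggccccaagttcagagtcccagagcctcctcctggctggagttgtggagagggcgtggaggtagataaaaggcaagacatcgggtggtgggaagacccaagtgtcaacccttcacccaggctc
Acot1 (chr12:84009252-84009501, plus strand): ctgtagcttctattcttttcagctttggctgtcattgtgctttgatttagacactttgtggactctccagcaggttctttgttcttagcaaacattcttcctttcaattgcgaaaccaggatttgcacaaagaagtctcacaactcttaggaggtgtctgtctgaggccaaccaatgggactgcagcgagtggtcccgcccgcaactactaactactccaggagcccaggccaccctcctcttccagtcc
Acot2 (chr12:83987611-83987860, plus strand): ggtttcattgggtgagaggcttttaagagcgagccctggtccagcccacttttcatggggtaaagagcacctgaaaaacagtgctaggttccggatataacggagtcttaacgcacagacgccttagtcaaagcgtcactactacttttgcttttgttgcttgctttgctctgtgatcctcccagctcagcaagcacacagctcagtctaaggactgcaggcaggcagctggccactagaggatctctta
Acot4 (chr12:84038129-84038378, plus strand): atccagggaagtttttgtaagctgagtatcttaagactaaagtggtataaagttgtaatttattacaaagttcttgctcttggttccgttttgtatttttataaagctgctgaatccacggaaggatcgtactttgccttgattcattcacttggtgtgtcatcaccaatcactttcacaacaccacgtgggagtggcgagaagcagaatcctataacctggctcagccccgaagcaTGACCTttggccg

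A promoter entry, which runs from 250 bases before to 50 bases after a start, was matched for 31 of the 35 members, with 35 entries in all. The 4 members without an entry were Acaa2, Crat, Decr1 and Vnn1. The half-site AGGTCA occurred on either strand in 7 of the 31 members (Acadm, Acadvl, Acot3, Acot4, Cpt1a, Creb3l3 and Fabp1), which is 22.6% of them, against 16.3% of all 32851 promoter entries. Shares of members count genes, some with several entries, whereas shares of all count single entries, so the units differ. The exact repeat AGGTCANAGGTCA was in 0 of the 31 members and in 0.0396% of all entries. The relaxed repeat AGGNCANAGGNCA was in Fabp1 alone among the members and in 0.381% of all entries, and its match, TGACCTATGGCCT as read on the gene's strand, began 67 bases before the start. Within it, TGACCT is AGGTCA on the opposite strand. These are matches of letters and not measured binding.

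Depth was 20005389 to 42023390 estimated counts per library in total RNA and 14852951 to 33824659 in polysome RNA, which limits counting error to the lowest members, such as Acot3. Levels are given as CPM, an estimated count scaled to a common library size, after TMM scaling within each RNA, so they compare a gene between mice but not genes with each other, since they are not per length. The targeted snoRNA could not be followed, because Snora73a and Snora73b held at most 4 counts in any library after selection of polyadenylated RNA. Its host transcript Snhg3 was at 3.85 to 5.1 CPM in total RNA with the GFP LNA and at 3.25 to 7.4 CPM with the SNORA73 LNA. All 12 hepatocyte markers were detected, with a summed level of 51567 to 79648 CPM in total RNA of the GFP group and 52376 to 82686 CPM in the SNORA73 group. The 10 markers of liver sinusoidal endothelial cells were the list whose summed levels did not overlap between groups in either RNA, apart from those of adipocytes in polysome RNA. In total RNA they summed to 159 to 192 CPM with the GFP LNA and 201 to 218 CPM with the SNORA73 LNA, 9 of 10 being higher with a median log2 difference of 0.26, and Stab2 was called. In polysome RNA they summed to 131 to 148 CPM and 163 to 183 CPM. The 6 adipocyte markers summed to 37.2 to 44.6 CPM in polysome RNA with the GFP LNA and 25.7 to 33.8 CPM with the SNORA73 LNA, with 4 of them below 1 CPM in every library. The part of these cells in the results was not tested, and in bulk RNA fewer cells of a type cannot be told apart from less RNA per cell.

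The first comparison asked whether fatty acid oxidation genes changed in the transcriptome with the SNORA73 LNA. None of the 35 passed the test at a false discovery rate (FDR) under 0.05 (edgeR's quasi-likelihood test with Benjamini-Hochberg adjustment over all 13195 genes), where 0.0303% of all genes did. At an unadjusted p under 0.05, 1 member was higher and 1 was lower, against 4.96% of all genes higher and 3.69% lower. The levels of no member were fully apart between the groups, against 1.8% of all genes. The point estimates lay below 0 for 25 of the 35, against 48.3% of all genes. The median log2 fold change was -0.09 for the members and 0.007 for all genes. With library totals in place of TMM, where the median of all genes moves to -0.14, 34 of the 35 lay below 0. No member was called with either scaling.

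In polysome RNA 0 of the 34 members tested passed the same test, against 0.0153% of 13060 genes. Acot3 was not tested there because it was above 0.5 CPM in fewer than 4 libraries. At an unadjusted p under 0.05, 2 members were higher and 3 lower, against 8.12% of all genes higher and 5.32% lower. The estimates of 26 of 34 members lay below 0, against 51.4% of all genes, with a median of -0.14 over the members and -0.01 over all genes. With library totals the median of all genes moves to -0.17, and 30 of 34 lay below 0. The groups did not overlap for 1 member, Acads, against 3.2% of all genes.

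**Figure D1:**
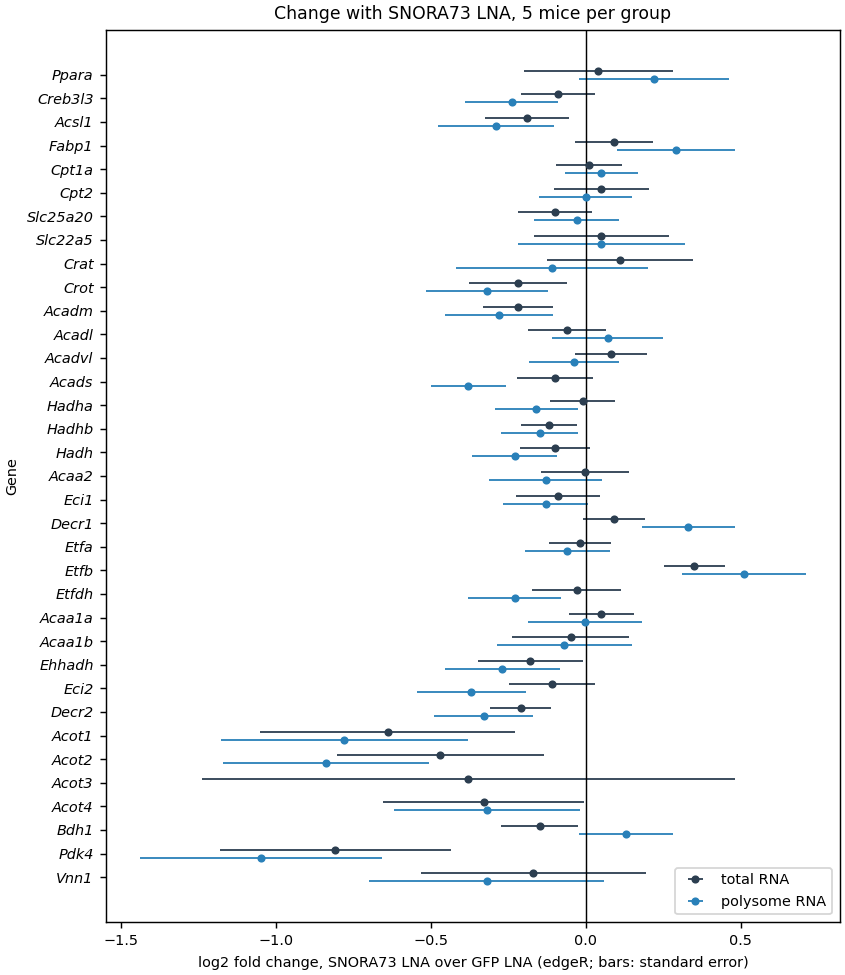
Each point is a gene's log2 fold change (SNORA73 LNA over GFP LNA, horizontal axis) in total RNA (dark) or polysome RNA (blue), with its standard error as a bar, from 5 mice per group. Most points lie within 1 standard error of 0 or a little below it, Etfb is the highest in both RNAs at 0.35 and 0.51, and Pdk4 is the lowest at -0.81 and -1.05.

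Among the regulators, Ppara, which encodes the receptor itself, was at 31.6 ± 11.2 CPM (SD, n = 5) in total RNA with the GFP LNA and 32.5 ± 8.58 CPM (n = 5) with the SNORA73 LNA. In polysome RNA it ranged from 29.8 to 51.9 CPM and from 34.4 to 82.2 CPM, mouse 11 being the highest. Creb3l3, a liver transcription factor of the fasting response, was at 140 ± 22.7 and 131 ± 11.7 CPM in total RNA (n = 5 each). Both factors overlapped between the groups in both RNAs.

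Fabp1, the abundant liver fatty acid binding protein, was at 5517 ± 854 CPM with the GFP LNA and 5873 ± 603 CPM with the SNORA73 LNA in total RNA (n = 5 each). In polysome RNA its level was 14960 ± 2487 and 18271 ± 4942 CPM, and mouse 11 reached 25589 CPM. The groups overlapped in both. Acsl1, which joins long-chain fatty acids to coenzyme A, was at 569 ± 39 and 500 ± 101 CPM in total RNA, with the lowest value, 381 CPM, in mouse 10.

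Of the carnitine shuttle, Cpt1a, the rate-limiting step of mitochondrial import, was among the steadiest members. It ranged from 168 to 193 CPM with the GFP LNA and from 146 to 207 CPM with the SNORA73 LNA in total RNA, with a log2 fold change of 0.01 (SE 0.106). In polysome RNA it ranged from 122 to 146 CPM and from 120 to 149 CPM, with a log2 fold change of 0.05 (SE 0.117). Cpt2, the inner-membrane partner of Cpt1a, Slc25a20, the carrier that exchanges carnitine esters, and Slc22a5, the cell's carnitine importer, had log2 fold changes of -0.10 to 0.05 in total RNA. Crat, which moves short acyl groups between carnitine and coenzyme A, was at 17.9, 17.9, 10.8, 12.5 and 6.3 CPM in GFP LNA mice 1, 2, 3, 8 and 9 and between 11.5 and 16.2 CPM in the SNORA73 group. Its spread in the control group thus covered the whole treated group. Crot, the peroxisomal octanoyltransferase, was at 635 ± 161 and 545 ± 34.9 CPM (n = 5 each), also with a wider control group.

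The acyl-CoA dehydrogenases open each round of oxidation and differ in the chain length they take. Acads, the short-chain enzyme, was at 89.7, 97.3, 105, 104 and 89 CPM in polysome RNA of GFP LNA mice 1, 2, 3, 8 and 9. In SNORA73 LNA mice 4, 6, 10, 11 and 12 it was at 78.4, 67.1, 65.2, 75.3 and 87 CPM. All 5 SNORA73 mice lay below all 5 controls, by a narrow margin of 87 against 89 CPM, and the log2 fold change was -0.38 (SE 0.121, FDR = 0.22). In total RNA Acads was at 78 ± 9.87 and 72.8 ± 9.67 CPM and the groups overlapped. Acadm, the medium-chain enzyme, had log2 fold changes of -0.22 (SE 0.112) and -0.28 (SE 0.175) in total and polysome RNA. Acadl and Acadvl, the long-chain and very long-chain enzymes, had values of -0.06 to 0.08 in both RNAs.

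For the steps that follow in the mitochondrial spiral most estimates in total RNA were near 0. Hadha and Hadhb, the subunits of the trifunctional protein, had log2 fold changes of -0.01 and -0.12 in total RNA, with standard errors of 0.105 and 0.0901. Hadh, the short-chain hydroxyacyl-CoA dehydrogenase, was at -0.10, and Acaa2, the mitochondrial thiolase, at -0.0023. In polysome RNA Hadha, Hadhb, Hadh, Acaa2 and the isomerase Eci1 had estimates of -0.23 to -0.13 (FDR = 0.506 to 0.804). Decr1, the reductase needed for unsaturated chains, was at 245, 227, 211, 228 and 225 CPM in polysome RNA of GFP LNA mice 1, 2, 3, 8 and 9. In SNORA73 LNA mice 4, 6, 10, 11 and 12 it was at 249, 231, 246, 380 and 324 CPM. Mice 11 and 12 stood above the rest while the other 3 lay near the controls, and the log2 fold change was 0.33 (SE 0.15, FDR = 0.36).

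Etfb, the β subunit of the electron transfer flavoprotein, had the smallest p of the members in total RNA. Its level was 259, 255, 258, 227 and 291 CPM in GFP LNA mice 1, 2, 3, 8 and 9 and 324, 354, 288, 359 and 321 CPM in SNORA73 LNA mice 4, 6, 10, 11 and 12. Only control mouse 9 and treated mouse 10 crossed, by 291 against 288 CPM, and the fold change was 1.28 (log2 0.35, SE 0.0983, FDR = 0.357). Without those mice, which left 4 per group, the log2 fold change was 0.44 with FDR = 0.0508, still not past the threshold. Leaving out the mice that cross widens the gap by itself, so this value is not an independent check. In polysome RNA Etfb was at 357 to 453 CPM with the GFP LNA and at 410, 376, 538, 825 and 666 CPM in SNORA73 LNA mice 4, 6, 10, 11 and 12 (log2 0.51, SE 0.201, FDR = 0.302). Mice 10, 11 and 12 were above every control there and mice 4 and 6 were not. The partner subunit Etfa (log2 -0.02 and -0.06) and the flavoprotein's dehydrogenase Etfdh (log2 -0.03 and -0.23) had lower estimates in both RNAs, and the difference between these genes and Etfb was not tested.

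Of the peroxisomal members, Decr2, the peroxisomal dienoyl-CoA reductase, had the only unadjusted p under 0.05 among the lower estimates in total RNA. It was at 156 ± 12 CPM with the GFP LNA and 134 ± 13.9 CPM with the SNORA73 LNA (n = 5 each, log2 -0.21, SE 0.0983, FDR = 0.576). In polysome RNA it was at 158 ± 22.7 and 125 ± 25.1 CPM (log2 -0.33, SE 0.16, FDR = 0.385). Eci2, an enoyl-CoA isomerase, was at 135 ± 34.9 and 104 ± 14.2 CPM in polysome RNA (log2 -0.37, SE 0.175, FDR = 0.375). Ehhadh, the bifunctional enzyme, and the thiolases Acaa1a and Acaa1b had log2 fold changes of -0.18 to 0.05 in total RNA and overlapped between the groups. Acaa1a and Acaa1b are near-identical copies, so reads may have been split between them with error.

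The acyl-CoA thioesterases Acot1 to Acot4, which release free fatty acids from coenzyme A, lie side by side on chromosome 12 (GRCm38.p6, from 83987861 to 84060400) and are close paralogs whose reads may be shared. Acot1, the cytosolic form, was at 31.9, 31.6, 10.8, 12.4 and 5.9 CPM in total RNA of GFP LNA mice 1, 2, 3, 8 and 9. In SNORA73 LNA mice 4, 6, 10, 11 and 12 it was at 8.84, 13.1, 7.9, 17.3 and 12.4 CPM. Controls 1 and 2 were above every treated mouse and the other 3 lay within or below the treated range (log2 -0.64, SE 0.412, FDR = 0.73). In polysome RNA the same mice 1 and 2 were at 45 and 35.2 CPM and every other mouse was at or below 19.8 CPM (log2 -0.78, SE 0.399, FDR = 0.422). Acot2, the mitochondrial form, was at 3.4, 7.23, 2.77, 3.17 and 2.28 CPM in polysome RNA of the controls and at 2.06, 1.5, 1.39, 2.57 and 3.08 CPM in SNORA73 LNA mice 4, 6, 10, 11 and 12 (log2 -0.84, SE 0.333, FDR = 0.308). Mouse 2 was the highest and the groups overlapped. Acot3 was at 0.0898 to 2.69 CPM in total RNA, near the limit of detection in most mice, and Acot4 at 15.1 to 54 CPM with mouse 2 highest.

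Pdk4, the kinase that shuts off pyruvate dehydrogenase when fat is burned, had the lowest estimate in both RNAs. In total RNA it was at 6.16, 8.63, 5.1, 12 and 1.74 CPM in GFP LNA mice 1, 2, 3, 8 and 9 and at 4.15, 4.12, 3.92, 4.31 and 2.73 CPM in SNORA73 LNA mice 4, 6, 10, 11 and 12. The 5 treated mice lay below 4 controls and above control mouse 9 (log2 -0.81, SE 0.373, FDR = 0.579). In polysome RNA it was at 4.84, 5.18, 2.33, 7.78 and 1.66 CPM in the controls and at 2.64, 2.85, 2.2, 1.48 and 1.17 CPM in the treated mice (log2 -1.05, SE 0.391, FDR = 0.278). Mice 3 and 9 overlapped the treated group there. Without mice 9 and 10 the log2 values were -1.06 (FDR = 0.114) and -1.27 (FDR = 0.187). Mouse 9 was the lowest control in both RNAs, so leaving it out widens the difference by itself. Bdh1, the mitochondrial enzyme that makes hydroxybutyrate, was at 157 ± 17.1 and 141 ± 23.5 CPM in total RNA and at 123 ± 11.7 and 135 ± 29.3 CPM in polysome RNA (n = 5 each). Vnn1, a pantetheinase and PPARα target, was at 15.1 to 61.5 CPM with the GFP LNA and at 20.1 to 54.5 CPM with the SNORA73 LNA in total RNA, the highest mice being 1 and 10.

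**Figure D2:**
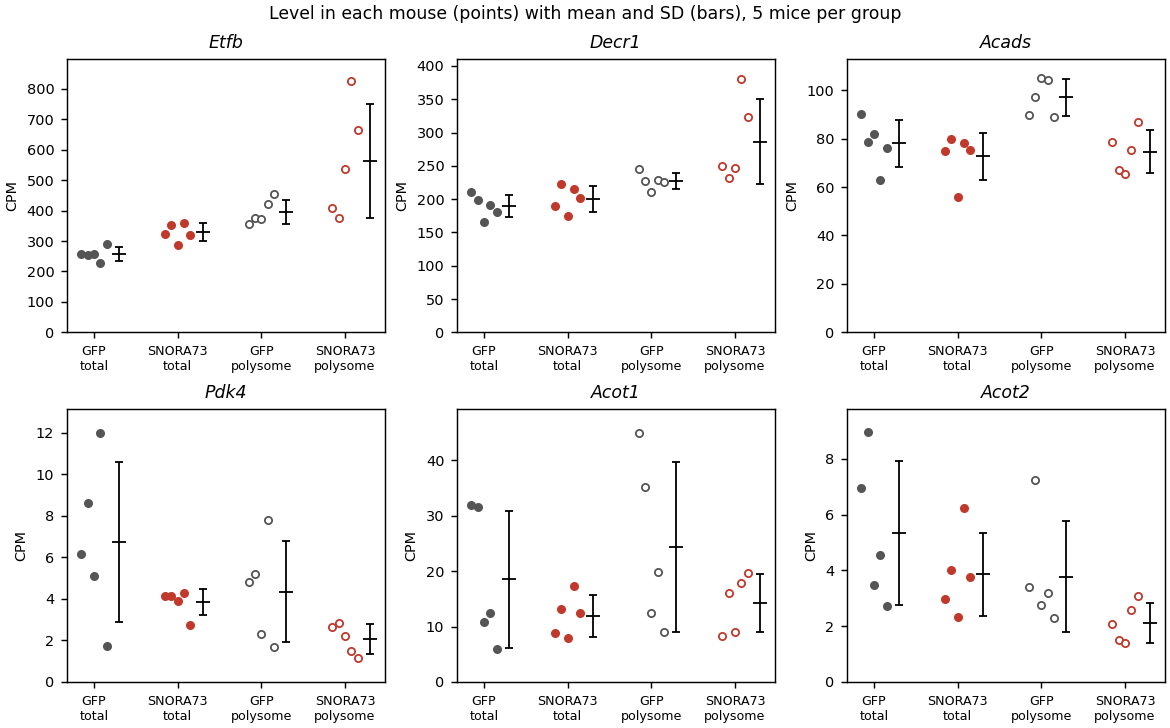
Level in CPM (vertical axis, from 0) of Etfb, Decr1, Acads, Pdk4, Acot1 and Acot2 in each mouse, in total RNA (filled points) and polysome RNA (open points) with the GFP LNA (grey) and the SNORA73 LNA (red), with mean and SD of 5 mice as black bars. Acads in polysome RNA shows no overlap (89 to 105 against 65.2 to 87 CPM), and the control bars of Pdk4, Acot1 and Acot2 span the widest range relative to the mean.

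Mice of the same group differed from each other across the list. In total RNA GFP LNA mice 1 and 2 lay above the mean of the 10 mice for 32 of 35 members each, with median deviations of 0.28 and 0.22 on the log2 scale. GFP LNA mouse 9 and SNORA73 LNA mouse 10 lay above it for 6 of 35 each, with median deviations of -0.20 each, and were the lowest mouse for 13 and 15 members. SNORA73 LNA mouse 4 lay above the mean for 5 of 35, with a median deviation of -0.12, and was the lowest for 1. In polysome RNA mice 1 and 2 lay above the mean for 31 and 29 of 34 members, and mice 4, 9 and 10 for 5, 6 and 7. The summed hepatocyte markers in total RNA were lowest in mice 9 and 10 (51567 and 52376 CPM, against 63157 to 82686 CPM elsewhere). Next lowest was mouse 11, which lay above the mean for 27 of 35 members. In polysome RNA these sums were lowest in mice 10, 4 and 9 (64771, 69750 and 72863 CPM, against 82560 to 102776 CPM). The part of the hepatocyte share in the members' levels was not tested. SNORA73 LNA mouse 11 was the highest mouse for 11 of 34 members in polysome RNA. The within-group SD of log2 CPM had a median of 0.219 over the members and 0.247 over all genes in total RNA, and of 0.295 and 0.339 in polysome RNA. The median of the members was thus below that of all genes in both RNAs, without matching for level. The most variable in total RNA were Acot3, Acot1, Pdk4, Vnn1, Acot2 and Acot4, from the 91.6th to the 99.2nd percentile of all genes tested, and Hadhb, at the 5.15th percentile, was the least. Pdk4 differed 6.87-fold between the highest and lowest control mouse and 1.58-fold within the SNORA73 group, Acot1 5.39-fold and 2.19-fold, and Crat 2.84-fold and 1.41-fold.

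**Figure D3:**
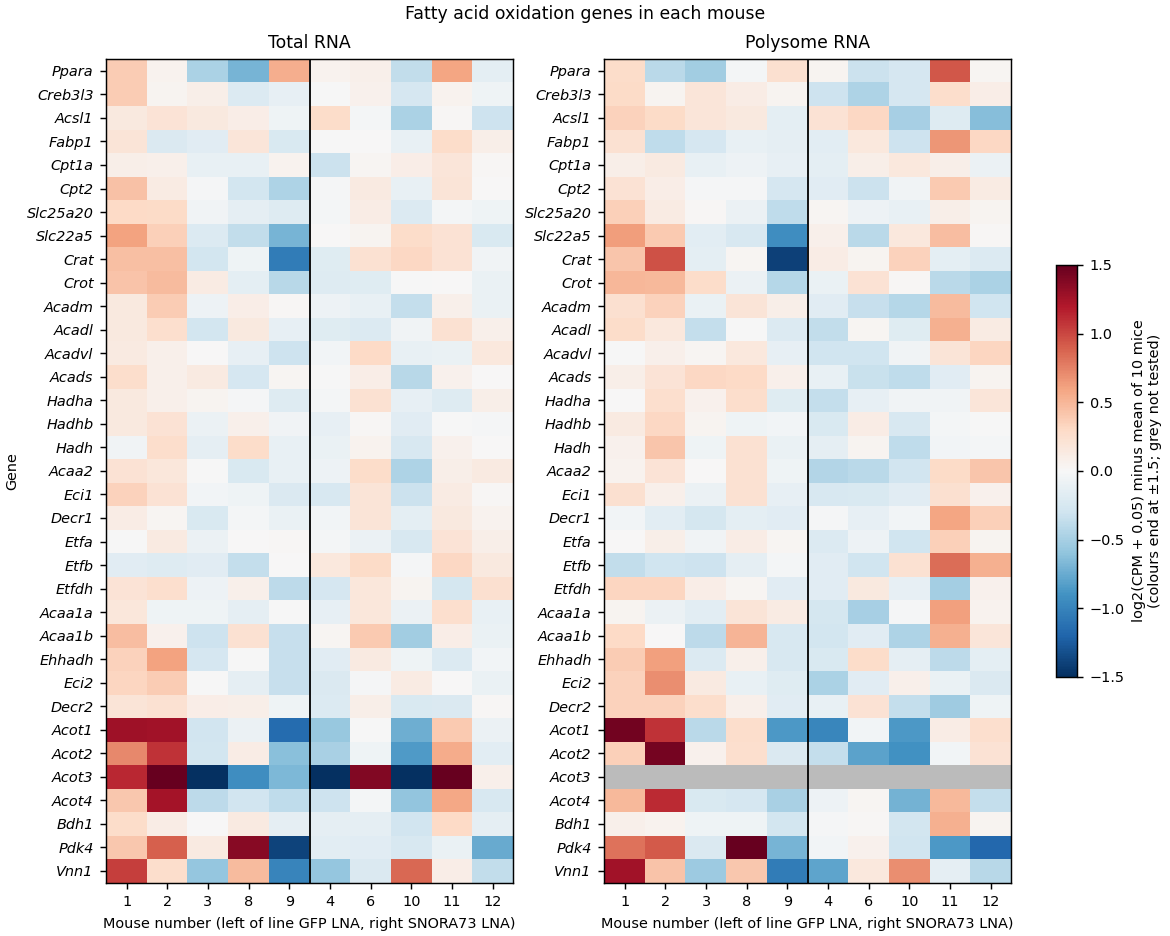
Rows are the 35 genes and columns the 10 mice in total RNA (left) and polysome RNA (right). Colour gives log2(CPM + 0.05) minus the mean of the 10 mice, with red above and blue below and grey for Acot3, which was not tested in polysome RNA. The columns of mice 1 and 2 are mostly red in both RNAs, and the strongest colours are in Acot1 to Acot4, Pdk4, Vnn1 and Crat.

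Some genes of food intake and daily rhythm also differed between mice of the same group. In mouse 9 the clock output gene Dbp was at 23 CPM in total RNA against 1.54 to 5.1 CPM in the other controls, and in the SNORA73 LNA mice it was between 2.31 and 22.7 CPM. The clock factor Arntl was at 1.45 CPM in mouse 9 and at 5.37 to 13.4 CPM in the other 9 mice. Fasn, the fatty acid synthase that rises with feeding, was at 272 CPM in mouse 9 and at 46.6 to 133 CPM in the other 9. The feeding-responsive genes Scd1 (2103 CPM, the lowest control), Me1 (133 CPM) and Srebf1 (39.6 CPM) were not high in mouse 9. Mouse 10, where many members were also low, was at 2.31 CPM for Dbp, 13.4 CPM for Arntl, the highest of the 10 mice, and 72.8 CPM for Fasn. None of 11 feeding genes or 11 clock genes tested was called between the LNA groups in either RNA, with medians of -0.26 and 0.20 in total RNA and -0.35 and 0.18 in polysome RNA. Without mice 9 and 10 the insulin receptor substrate Irs2 was called lower in total RNA (log2 -0.95, FDR = 0.0267, against -0.49 and FDR = 0.714 with all mice). The part of feeding or time of day in the members' levels was not tested.

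The level of a member in total RNA went with its level in polysome RNA over the 10 mice. Of 34 members tested in both RNAs, 20 had a positive Pearson correlation of log2 CPM at an FDR under 0.05 (permutation test adjusted over 12736 genes), against 17.9% of all genes. The median r was 0.79 over the members and 0.49 over all genes. All genes here include those near the filter of 0.5 CPM, and genes of like level were not compared. Vnn1 had r = 0.96 (permutation p = 4e-05, FDR = 0.00271) and Spearman's rho = 0.98 (permutation p = 2e-05), and r was 0.92 after leaving out the 2 mice farthest from its median. Acot4 had r = 0.97 (permutation p = 3e-05, FDR = 0.00255) and rho = 0.85 (permutation p = 0.00289), and Ehhadh r = 0.95 (permutation p = 8e-05, FDR = 0.00383) and rho = 0.93 (permutation p = 0.00035). Leaving out the 2 farthest mice gave 0.94 for Acot4 and 0.82 for Ehhadh, and over the members the median r fell to 0.61 with 33 of 34 above 0. The lowest values were those of Acadvl (r = -0.03), Acaa2 (r = 0.23), Acaa1a and Hadha (r = 0.25 each). With levels centred on the LNA group means 20 members passed, against 18.7% of all genes, 19 of them among the first 20, with Bdh1 in place of Acot2. With rank correlation 8 passed, against 8.19% of all genes, and without mice 9 and 10 6 passed, against 2.91%. Total and polysome RNA of a mouse come from the same liver lysate, so shared depth or quality of that lysate cannot be told apart from a shared level in the liver.

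Whether the SNORA73 LNA changed polysome RNA beyond total RNA was tested as the interaction of LNA and RNA in a single fit of all 20 libraries. None of 35 members passed at an FDR under 0.05, against 0.00725% of 13795 genes, and with mouse as a replicate block the count was again 0. At an unadjusted p under 0.05 the fit without the block had 0 members, against 2.91% of all genes, and the fit with the block had 3 (Bdh1, Eci2 and Acot3), against 8.03%. The log2 ratio of polysome to total level in each mouse separated the LNA groups fully for 2 members, Bdh1 and Eci2, against 1.72% of all genes. For Bdh1 it was -0.44, -0.32, -0.34, -0.45 and -0.36 in GFP LNA mice 1, 2, 3, 8 and 9 and -0.13, -0.08, -0.23, -0.04 and -0.09 in SNORA73 LNA mice 4, 6, 10, 11 and 12. Every ratio was below 0, and those of the treated mice were nearer to it (interaction 0.28, FDR = 1, and FDR = 0.484 with the block). For Eci2 the ratio was 0.07, 0.33, 0.12, 0.04 and 0.22 in the controls and -0.23, -0.10, -0.01, -0.08 and -0.10 in the treated mice, in the opposite direction (interaction -0.26, FDR = 1, and FDR = 0.519 with the block).

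The polysome share of a transcript relative to other transcripts was then compared between the 2 RNAs of the same mice. With the GFP LNA 8 of 35 members were called higher in polysome than in total RNA, against 21.8% of all genes, and 4 were called lower, against 21%. With the SNORA73 LNA the counts were 5, against 19.7%, and 4, against 18.2%. Both RNAs of a mouse share its number, and with mouse as a replicate block the counts rose to 15 higher, against 28.9% of all genes, and 12 lower, against 27.2%, with the GFP LNA. With the SNORA73 LNA and the block they were 10, against 26%, and 13, against 25.1%. A ratio above 0 in all 10 mice was found for 5 members, against 20% of all genes, and below 0 in all 10 mice for 12 members, against 19.2%.

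Fabp1 had the highest ratio of the members. Its polysome level exceeded its total level 2.64-fold with the GFP LNA (log2 1.40, SE 0.166, FDR = 1.27e-06) and 3.03-fold with the SNORA73 LNA (log2 1.60, SE 0.167, FDR = 4.27e-07), and the ratio ranged from 1.19 to 1.86 on the log2 scale over the 10 mice. The electron transfer flavoprotein subunits Etfb (log2 0.58 with the GFP LNA and 0.74 with the SNORA73 LNA) and Etfa (0.41 and 0.37) and the isomerase Eci1 (0.58 and 0.54) were called higher in both groups. With no filter beyond 1 count the call of Etfa with the SNORA73 LNA was lost (FDR = 0.075), as were those of Cpt2, Acadvl and Acaa1a with the GFP LNA and of Hadh with the SNORA73 LNA (FDR = 0.0628, 0.0988, 0.0678 and 0.0945). Decr1 was above 0 in all 10 mice too and was called in the SNORA73 group (0.47, SE 0.124, FDR = 0.00463). Creb3l3 (log2 0.46), Cpt2 (0.43), Acadvl (0.36) and Acaa1a (0.41) were called with the GFP LNA, and without mice 9 and 10 the calls of Cpt2, Acadvl and Acaa1a were lost (FDR = 0.0792, 0.089 and 0.136). Single mice also ended these calls, namely mouse 2, 3, 8 or 9 for Cpt2 and Acadvl. For Acaa1a any GFP LNA mouse or SNORA73 LNA mouse 10 did so. The highest FDR came without mouse 8 (0.107, 0.114 and 0.147). With mouse as a replicate block Cpt2, Acadvl and Acaa1a were called with the GFP LNA (FDR = 0.00103, 0.00848 and 0.00772). The block on 8 mice kept Cpt2 (FDR = 0.0151) and lost Acadvl and Acaa1a (FDR = 0.0645 and 0.0547). With the SNORA73 LNA and the block on all mice, Cpt2 and Acaa1a were called (FDR = 0.00603 and 0.03) and Acadvl was not (FDR = 0.0808).

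Lower in polysome RNA in both groups were the carnitine acyltransferases Crot (log2 -0.79, SE 0.188, and -0.88, SE 0.188) and Cpt1a (-0.51 and -0.47, SE 0.105 each), and Acsl1 (-0.73, SE 0.17, and -0.82, SE 0.171). For Cpt1a the ratio lay between -0.64 and -0.31 in all 10 mice, and for Crot between -1.27 and -0.43. Bdh1 was called lower with the GFP LNA (-0.39, FDR = 0.0297), and Hadh with the SNORA73 LNA (-0.33, FDR = 0.0405). The call of Bdh1 was lost without mouse 1, 3, 8 or 9 (FDR up to 0.089, without mouse 8), and that of Hadh without mouse 1 or any SNORA73 LNA mouse (FDR up to 0.0988, without mouse 11). With mouse as a replicate block Bdh1 was called lower with the GFP LNA (FDR = 0.000124) and not with the SNORA73 LNA (FDR = 0.146). Hadh was then called lower in both groups (FDR = 0.0129 and 0.000504). With the block the carnitine carriers Slc22a5 and Slc25a20, Ehhadh, Acot2, Acot4, Pdk4 and Vnn1 were called lower in both groups as well. Each of these genes, with Bdh1 and Hadh, was below 0 in all 10 mice. Acadm, Acadl, Hadhb, Etfdh, Eci2 and Decr2 were called in neither group with or without the block. Whether transcript length bears on these ratios was not tested.

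**Figure D4:**
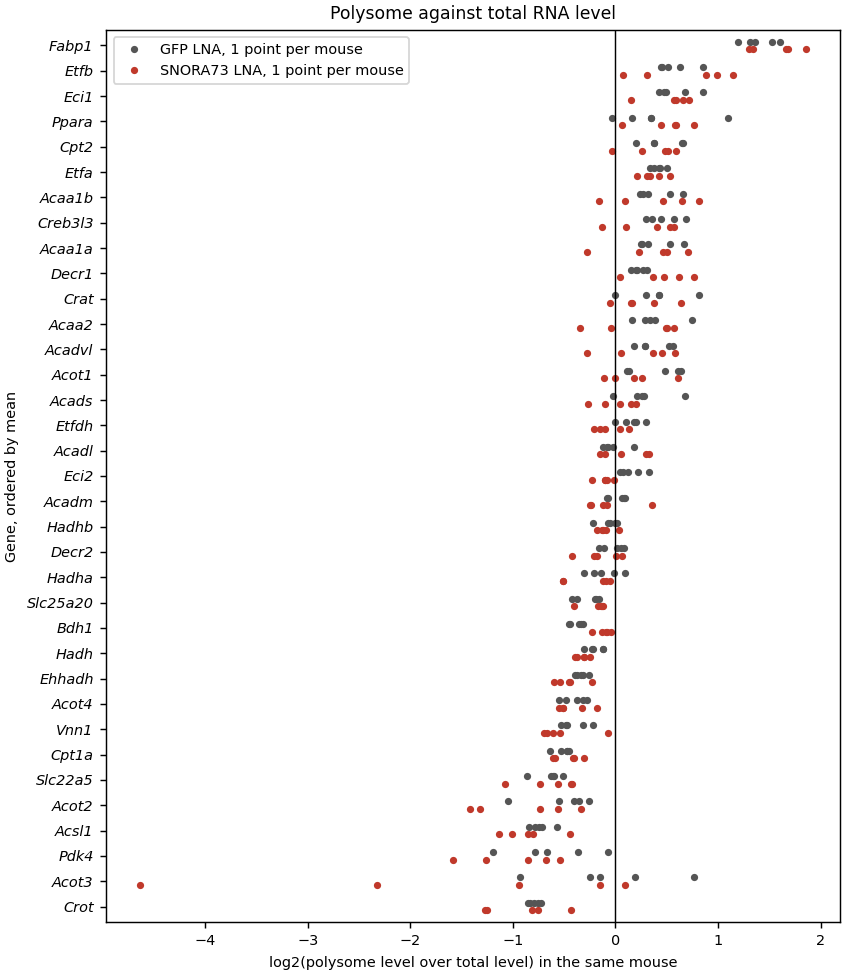
Each point is the log2 ratio of polysome to total level of a gene in 1 mouse (horizontal axis), grey for the GFP LNA and red for the SNORA73 LNA, with genes ordered by their mean from Fabp1 at the top to Crot at the bottom. The points of Fabp1 lie between 1.19 and 1.86 and those of Crot between -1.27 and -0.43, and the grey and red points separate for Bdh1 and Eci2.

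Of 68 further genes of the pathway matched in the table, 63 were tested in each RNA and 0 were called in either LNA comparison. In total RNA 36 of 63 lay below 0 with a median of -0.02, and in polysome RNA 43 of 63 with a median of -0.08. Those with the 3 smallest p-values in total RNA were Cd36, Pex11a and Acad12. Cd36, which takes up fatty acids, was at 37.2, 41.5, 23.7, 33.6 and 43 CPM in the controls and 19.8, 20.5, 20.8, 24.9 and 21.7 CPM in SNORA73 LNA mice 4, 6, 10, 11 and 12 (log2 -0.73, SE 0.146, FDR = 0.215). Only control mouse 3 fell among the treated mice. Pex11a, which acts in peroxisome division, was the single gene of these 3 whose groups did not overlap, at 35.2 to 45.6 CPM with the GFP LNA and 46 to 60.3 CPM with the SNORA73 LNA (log2 0.38, SE 0.106, FDR = 0.357). Acad12, an acyl-CoA dehydrogenase family member, had a log2 fold change of -0.38 (SE 0.151, FDR = 0.505). In polysome RNA Pex11a (log2 0.51, SE 0.129, FDR = 0.148) and Cd36 (log2 -0.85, SE 0.222, FDR = 0.157) were again among the 3 with the smallest p-values. Under some alternatives these genes passed. Cd36 was called in total RNA with DESeq2 (FDR = 0.00258), without mouse 3 (FDR = 0.0348) and with no filter beyond 1 count (FDR = 0.0477), and in polysome RNA with DESeq2 (FDR = 0.0241), in a single fit of all 20 libraries (FDR = 0.0325) and with mouse as a replicate block in limma-voom (FDR = 0.04). Pex11a was called in polysome RNA under the last 3 of these (FDR = 0.019, 0.0245 and 0.0144). Without mice 9 and 10 Pcca, a subunit of propionyl-CoA carboxylase, was called higher in total RNA (log2 0.65, FDR = 0.0391, against 0.39 and FDR = 0.596 with all mice). Cd36 is also made by endothelial cells and adipocytes, whose summed marker levels are given above.

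The neighbouring steps of oxidative metabolism gave the same count of 0. Of 77 respiratory chain subunits 0 were called in total RNA, with a median of 0.03 on the log2 scale and 30 of 77 below 0, and 0 in polysome RNA, with a median of -0.07 and 49 of 77 below 0. Atp5f1, a subunit of ATP synthase, was called lower in polysome RNA (log2 -0.37) with DESeq2 (FDR = 0.0431), in the single fit (FDR = 0.0448) and with the block in limma-voom (FDR = 0.0324). Of 18 tricarboxylic acid cycle enzymes 0 were called in either RNA, with medians of 0.0095 and -0.10. The counts for polysome against total RNA differed between the lists. With the GFP LNA 69 of the 77 respiratory chain subunits were called higher and 2 lower, with a median log2 ratio of 1.08, where the fatty acid oxidation members had 8 and 4 and a median of 0.03.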

How the data were processed

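Liver total RNA and polysome RNA of 10 mice were sequenced as 20 libraries, grouped by the mouse and LNA in the sample labels, and all 20 columns matched a sample. The authors deposited estimated counts by gene. Per the methods and the submitters' processing notes, the authors selected polyadenylated RNA, filtered paired reads with fastp, removed rRNA reads with Bowtie2 and SAMtools, quantified against Ensembl 102 (GRCm38) by kallisto 0.46.2 and combined the transcripts of a gene with tximport. Reads shared by similar genes are divided by estimation, so paralogs are uncertain. Their later steps (TMM, voom, limma 3.46.0) are not in the table.

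Counts were rounded (14.3% of values were not whole). Symbols were matched for 51903 of 53028 identifiers, the rest taking up to 2.99% of the counts of a library. Genes with CPM above 0.5 in at least 4 libraries of a fit were kept, scaled by TMM and tested with edgeR 4.0.16 in R 4.3.3 over all genes, with the 2 RNAs apart for the LNA comparisons and all 20 libraries together for the interaction and for polysome against total RNA. The call was a Benjamini-Hochberg FDR under 0.05. Correlations of log2 CPM (prior count 0.5) used 100000 two-sided permutations, adjusted over all genes. The study used 4 mice per group and left out 1 per group without naming it, so all 10 were kept. Leaving out control mouse 9 and treated mouse 10 served as an alternative. That pair was taken from an earlier analysis of these data that compared choices of mice with the study's fold changes, so the alternative is not independent of them. The others were DESeq2 1.42.0, limma-voom (limma 3.58.1), other scalings and filters, a single fit, the study's fold thresholds, each mouse left out, and mouse as a replicate block. The block comes from the labels, since both libraries of a number are from the same mouse. In 9 of 10 mice the deviations from the group mean correlated best with the mouse's own other library (0.12 to 0.59 over all 10), and mouse 6 was the exception, at 0.12 against 0.24 with another mouse.

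The members and lists were chosen with earlier results of these data known. Named are all members, and of the other pathway genes those called or else the 3 with the smallest p in each LNA comparison. Some of these genes are not reported here. The other lists are given by counts and medians. Genes named from those lists, and Pcca, were chosen after their values were seen. Scripts were tested on simulated data. P-values measure the spread between mice, and depth limits cover counting error only.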

Additional observations from a re-analysis of the deposited data

Results flagged for a closer look

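In 138 sets of 5 values (a member in an LNA group and RNA), 6 held a value whose gap to the next was more than 0.71 of the range of the set. About 1 in 20 sets, or 6.9, would do so by chance. In total RNA Acads was at 55.9 CPM in SNORA73 LNA mouse 10 and at 74.7 to 79.9 CPM in the other 4 mice of its group. Bdh1 was at 182 CPM in SNORA73 LNA mouse 11 against 121 to 135 CPM in the others. Pdk4 was at 2.73 CPM in SNORA73 LNA mouse 12 against 3.92 to 4.31 CPM. In polysome RNA Acot2 was at 7.23 CPM in GFP LNA mouse 2 against 2.28 to 3.4 CPM. SNORA73 LNA mouse 11 stood apart for Ppara, at 82.2 CPM against 34.4 to 44.3 CPM, and for Acadm, at 322 CPM against 173 to 206 CPM. No member differed in its change between the 2 RNAs by the interaction test.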

How the results depend on the processing

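The count of 0 members called in either LNA comparison and in the interaction held under every alternative run for each. The lowest adjusted p of a member over the alternatives was 0.0508 in total RNA (Etfb, without mice 9 and 10, edgeR) and 0.0724 in polysome RNA (Acads, DESeq2), and with mouse as a replicate block (limma-voom, single fit) the lowest were 0.895 and 0.0941. For polysome against total RNA the 12 members called with the GFP LNA and 9 with the SNORA73 LNA became 27 and 23 with mouse as a replicate block, and 20 and 19 with the block on 8 mice, an alternative added after the data were seen. Leaving out each mouse gave 8 to 12 and 8 to 13. The 20 members correlated between the RNAs became 6 without mice 9 and 10 and 8 with rank correlation. The estimates below 0 numbered 18 to 29 of 35 in total RNA and 21 to 29 of 34 in polysome RNA when each mouse was left out. Over all genes the 4 and 2 called in total and polysome RNA became 75 and 281 with DESeq2, 97 and 31 without mice 9 and 10, 13 and 72 with no filter beyond 1 count, 2 and 31 with a CPM above 1 in every library, 2 and 0 with library totals, and 4 and 317 in a single fit. Leaving out each mouse gave 1 to 59 and 0 to 17, the highest in both being without mouse 9. The 1 gene called for the interaction became 7 with DESeq2 and 0 with limma-voom, with 8 mice and with the stricter filter. The cause of these shifts was not tested. Of the other pathway, respiratory chain, feeding and clock genes, 0 of which were called in the LNA comparisons, Cd36, Pex11a, Pcca, Atp5f1 and Irs2 passed under the alternatives named with their values above. No called value changed sign. Depth limits Acot3 and, less, Pdk4 and Acot2.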
